A study of Mus musculus with 24 samples.

Results

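The comparison of cabozantinib (cabo) with control at the end of study (EOS) rests on 4 of the 24 tumors of the series. They are the intratibial tumors of mice 19 and 23, which received cabo, and of mice 9 and 13, the controls, chosen by their labels alone. All 4 animals were male C57/BL6 mice, aged 8 to 10 weeks at the start, whose tibiae were injected with TC2Ras-Luc cells. This luciferase-marked mouse prostate adenocarcinoma line descends from TRAMP-C2 and carries added activated H-Ras and added mouse androgen receptor. Both groups received a control plasmid in the tibialis anterior muscle with sonoporation, which opens cells to DNA by ultrasound. The labels call it an empty vector, while the study describes a control plasmid that carries the reporter gene Lucia alone. Both were dosed by gavage, with cabo in one group and its vehicle PVP in the other. Per the study's methods, dosing lasted 2 weeks, and mice not killed at day 14 (D14) were kept until the ethical endpoint. The day of each EOS harvest is not given in the sources used here, so the time from the last dose to harvest is unknown. The question was which transcripts of the tumor and of the bone around it still differed in cabo-treated mice at that late harvest. The labels number the mice, so each library was taken as 1 mouse.

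Cabo is an oral inhibitor of several receptor tyrosine kinases. Among them are Met, the receptor of hepatocyte growth factor, and the VEGF receptors, through which VEGF drives the growth and survival of blood vessel endothelium. It also blocks the TAM receptors Axl, Mertk and Tyro3, which bind Gas6 and dampen innate immune signals. In bone metastasis the drug is known for effects on vessels, on osteoclasts, which dissolve bone, and on osteoblasts, which form it.

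The 4 libraries held between 69953147 and 71205956 counts on genes, and the 8 EOS libraries between 68077714 and 72996212. Levels below are CPM, that is counts scaled to a common library size with the TMM method of edgeR, not divided by gene length, so levels were compared between tumors and not between genes. A log2 fold change (log2 FC) is cabo minus control, with its standard error (SE) and n = 2 tumors a group. Pearson's r of log2(CPM + 1) over genes was 0.992 between the cabo tumors, 0.989 between the control tumors and 0.984 to 0.989 across groups. The lowest p that an exact permutation test of 1 value allows here, two-sided, is 0.333.

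The labelled cell type was checked against its markers first. Krt8, an epithelial keratin, stood at 29.3 and 39.3 CPM in the cabo tumors and at 21.2 and 27.9 CPM in the controls. Epcam, an epithelial adhesion molecule, stood at 2.40 and 2.86 CPM against 1.98 and 2.49 CPM. Krt18 and Cdh1 were low in both groups, with 0.671 to 2.25 CPM and 3.56 to 10.3 CPM over the 4 tumors. The prostate genes Hoxb13 and Pbsn and the basal keratin Krt5 were at 0 counts in all 4 tumors, so these markers gave no sign of prostate identity in the RNA of either group.

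No gene passed the adjusted threshold in this comparison. Of 20026 genes tested with edgeR's quasi-likelihood F test, 0 were higher (0%) and 0 lower (0%) with cabo at a Benjamini-Hochberg adjusted p under 0.05, and the smallest adjusted p was 0.404. At an unadjusted p under 0.05 there were 1783 genes, 909 higher (4.54% of genes) and 874 lower (4.36%). DESeq2 called 161 genes higher and 84 lower on the same counts. A differentially expressed gene (DEG) was taken as one with a log2 FC of at least 1.5 in size and an unadjusted p under 0.05, and there were 309 DEGs higher (1.54%) and 193 lower (0.964%). The study states this limit beside its results and sets the same number on the plain fold change in its methods. With a plain fold change of at least 1.5, the numbers were 610 and 482. In 4289 genes (21.4%) both cabo tumors lay above both controls, and in 4321 genes (21.6%) both lay below. Each gene below therefore has an adjusted p of at least 0.404 by edgeR at EOS, and is described by its values in the 4 tumors. Some of them passed by DESeq2, with adjusted p from 6.95e-10 in Mylpf to 0.0467 in Cldn5. These were the muscle genes Mylpf, Trim63, Acta1, Myh4, Des, Myf6, Chrng and Myod1, the higher genes Igfbp5, Vcam1, Cyyr1, Peg3, Snap25, Bank1, Stc1, Robo1, Ednrb, Cd163, Hist1h1c, Hist1h1d, Aplnr, Hey1, Mrc1, Gas6, Cldn5, Fmod and Fap, and the lower genes Slc9b2, Cyb5r1, Gfra2, Hspa1b, Recql4, Trmt1, Esm1, Lag3, Cth, S100a9, Hcar2, Clec4e and Cd3e. No receptor kinase, interferon or osteoclast list gene named below was among them. Apart from the receptor kinases, the genes named were chosen after their values were seen or as the most abundant of their list.

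**Figure D1:**
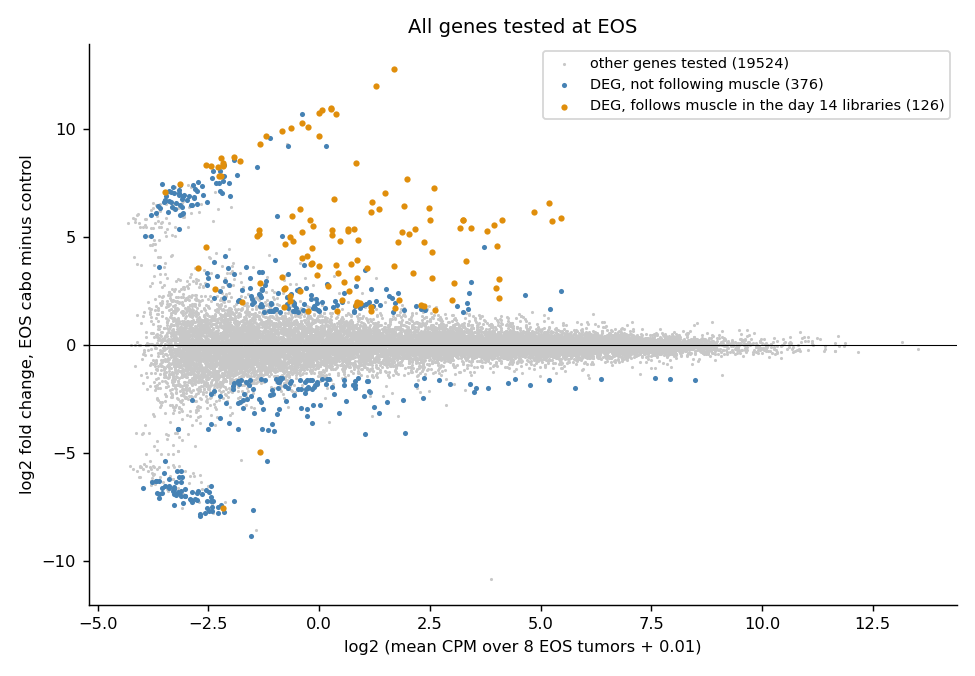
Change with cabo at EOS for all 20026 genes tested. The horizontal axis is the mean level over the 8 EOS tumors on a log2 CPM scale and the vertical axis is the log2 FC of 2 cabo against 2 control tumors; colors mark the DEGs by the log2 FC limit, with the 126 that follow skeletal muscle in the D14 tumors in orange and the other 376 in blue, and 124 of the orange points lie above 0.

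Skeletal muscle genes stood furthest apart between the groups. Of 21 tested genes of the contractile apparatus of muscle, 20 were without overlap and higher with cabo (95.2%, beside 21.4% of all genes) and at an unadjusted p under 0.05 (4.54% of all genes were higher at that limit), and the median log2 FC of the list was 5.53, against -0.0087 over all genes. Acta1, skeletal alpha-actin, is shown with its promoter because it had one of the smallest p-values of the list. In the 120-base windows below, upstream of the RefSeq transcription start on GRCm38.p6, capitals mark the CArG box, the element bound by serum response factor, 73 to 64 bases before the start in Acta1 (chr8:123894776-123894895, minus strand) and 104 to 95 bases before it in Myh4, the fast myosin heavy chain (chr11:67237678-67237797, plus strand). The Acta1 window runs up to the start, and the Myh4 window ends 14 bases short of it. In the GENCODE annotation both genes begin further downstream, Acta1 at chr8:123894751 and Myh4 at chr11:67238029. The distances given hold for the RefSeq starts alone.
Acta1: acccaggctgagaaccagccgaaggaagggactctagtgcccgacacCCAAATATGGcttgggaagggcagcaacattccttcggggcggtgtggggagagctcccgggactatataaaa
Myh4: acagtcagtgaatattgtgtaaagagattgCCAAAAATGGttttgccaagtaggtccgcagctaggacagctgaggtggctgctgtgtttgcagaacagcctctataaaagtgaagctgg

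Over 250 bases upstream, a CArG box was present in 2 of 21 windows (9.52%) of the 17 muscle genes that matched the table and in 482 of 32851 windows of all genes (1.47%). A MEF2 box, named for the muscle factor that binds it, was present in 4 of 21 (19%) and in 959 of all windows (2.92%). These matches are letters in the sequence, and binding was not measured.

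Acta1 stood at 219 CPM in mouse 19 and 36.3 CPM in mouse 23, against 1.70 and 2.69 CPM in the controls, a log2 FC of 5.86 (SE 0.929). Myh4 stood at 200 and 20.2 CPM against 0.822 and 1.48 CPM (log2 FC 6.57, SE 1.15). Des, desmin, the intermediate filament of muscle, stood at 202 and 27.4 CPM against 2.16 and 2.24 CPM (log2 FC 5.71, SE 0.967). In all 3 genes the groups did not overlap, and mouse 19 was several-fold above mouse 23. Mylpf, a fast myosin light chain, stood at 19.5 and 5.32 CPM against 0.191 and 0.406 CPM. Eno3, the muscle enolase, was the member whose groups overlapped, at 60.4 and 51.2 CPM against 42.2 and 75.5 CPM.

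Most regulators of muscle formation and of muscle loss were higher as well. Of 13 tested genes of regenerating muscle, 11 were higher, 10 of them without overlap (76.9%, beside 21.4% of all genes), with a median log2 FC of 5.06. Runx1, a transcription factor that many cell types use, was the member lower without overlap, with a log2 FC of -0.26. Trim63, a ubiquitin ligase of wasting muscle, stood at 12.3 and 1.66 CPM in the cabo tumors and at 0 counts in both controls. Against a floor of 3 counts per library, the mean of the cabo tumors was at least 162-fold higher. Myog, myogenin, stood at 5.58 and 0.933 CPM. Myod1, the factor that commits cells to the muscle lineage, stood at 1.12 and 0.146 CPM. Both were at 0 counts in the controls, and their cabo means were at least 75.7-fold and 14.8-fold higher. Mouse 19 was the higher cabo tumor in each of these genes, so for mouse 23 alone the bounds are lower. Myf6, Chrng and Myh8, a muscle regulator, a fetal acetylcholine receptor subunit and a perinatal myosin, were also without overlap. Pax7, the marker of muscle stem cells, was at 0 counts in all 4 tumors. Pax7, Myf5 and Mymx did not pass the expression filter, while members at 0 counts in both controls passed it through other tumors. The share of this list without overlap is therefore in part set by that filter.

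The amount of muscle RNA was not a property of the cabo pair alone. The summed level of the list was 1262 CPM in mouse 19 and 206 CPM in mouse 23, against 52.3 and 95.2 CPM in the controls. Eno3, whose groups overlapped, supplied most of the sum in both controls, so the sum shows a smaller gap than most members did. The mean log2 CPM of the list (its score) was 5.08 and 2.32 with cabo and -1.54 and -0.58 in the controls. In the EOS tumors that received the IL-27 plasmid, the score was 3.13 and 1.42 with cabo and -0.97 and -0.13 without. Across the 12 D14 tumors, which share no library with this comparison, 269 of the 20026 genes (1.34%) followed the muscle score with r above 0.8. The muscle list was itself higher with cabo at D14, with a median log2 FC of 4.46 and 21 of 21 genes above 0, so following muscle and following cabo cannot be told apart there. They made up 124 of the 309 DEGs higher with cabo (40.1%) and 2 of the 193 lower. How much muscle a tumor section held and how much RNA each muscle cell held cannot be told apart in bulk RNA, here or for any cell type below. With the muscle score as a covariate, the numbers of DEGs were 102 higher and 371 lower, of which 28 and 28 were among those of the first fit.

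**Figure D2:**
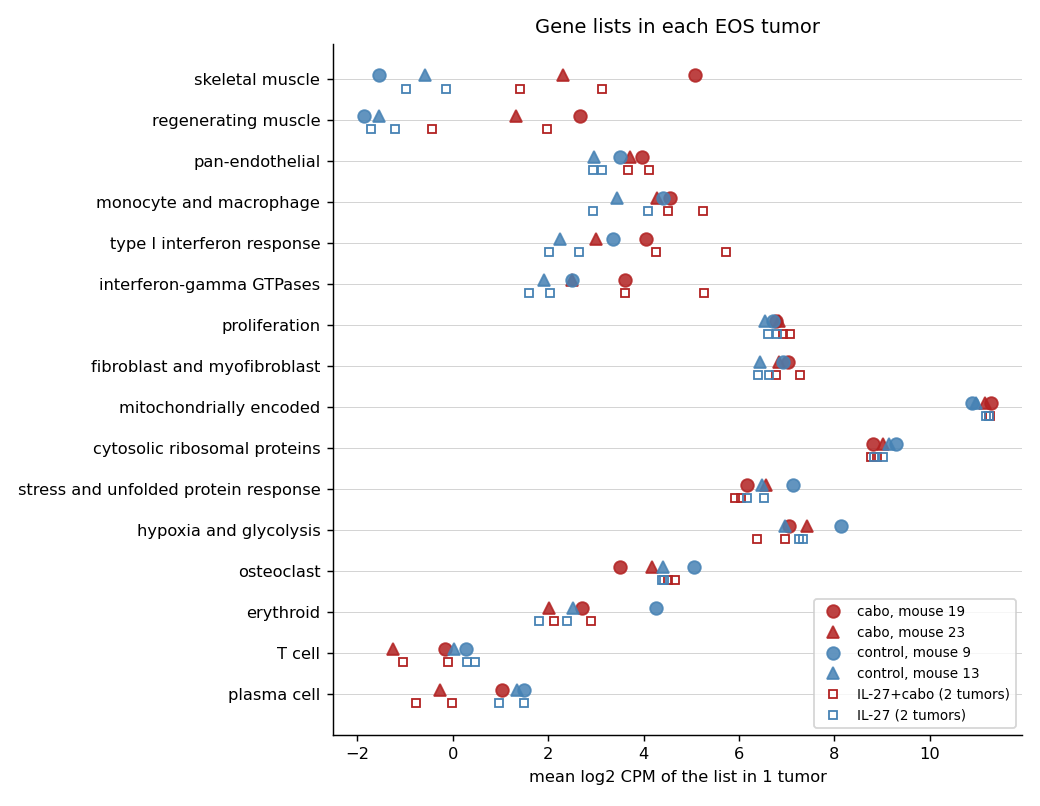
Scores of marker lists in each of the 8 EOS tumors, as the mean log2 CPM of the list on the horizontal axis. Filled points are the 4 tumors compared, open squares those with the IL-27 plasmid, red with cabo and blue without; the skeletal muscle list stands at 5.08 and 2.32 with cabo against -1.54 and -0.58 in the controls, and control mouse 9 stands above the other control, mouse 13, in the hypoxia and osteoclast lists.

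Of the DEGs higher with cabo, 185 did not follow the muscle score by the limit above, which does not show that they lie outside muscle. Those named next were among the higher genes of smallest p. Vcam1, the vascular cell adhesion molecule that binds leukocytes, stood at 54.5 and 59.3 CPM with cabo and at 19.6 and 15.9 CPM in the controls, a log2 FC of 1.68 (SE 0.293). Cd163, the hemoglobin scavenger receptor of resident macrophages, stood at 3.14 and 1.98 CPM against 0.734 and 0.559 CPM (log2 FC 1.98, SE 0.355). Igfbp5, a binding protein of insulin-like growth factors, stood at 92.3 and 38.9 CPM against 10.1 and 13 CPM (log2 FC 2.51, SE 0.402). In all of these the pairs were well separated, and the cabo tumors of Vcam1 lay close together while those of Igfbp5 did not. Igfbp5 did not follow the muscle score by the limit above (r = 0.46 over the D14 tumors).

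The gene with the smallest p of all was Cyyr1 (ENSMUSG00000041134, chr16:85421533-85553397 on GRCm38), a small membrane protein, at 7.94 and 5.61 CPM against 1.94 and 1.94 CPM, or a log2 FC of 1.80 (95% interval 1.17 to 2.43). Bank1, an adaptor of B cell receptor signals, stood at 2.41 and 1.76 CPM against 0.308 and 0.280 CPM (log2 FC 2.82, SE 0.440). Peg3, an imprinted zinc finger gene, stood at 14.5 and 15.8 CPM against 4.20 and 4.47 CPM (log2 FC 1.80, SE 0.334). In each of these, the gap between the pairs was wider than the spread within either pair. Stc1, the secreted glycoprotein stanniocalcin, stood at 458 and 448 CPM against 231 and 242 CPM, a log2 FC of 0.94 (SE 0.161). Snap25, a vesicle fusion protein of neurons, stood at 9.88 and 8.52 CPM against 4.14 and 3.78 CPM. The linker histone gene Hist1h1c stood at 136 and 142 CPM against 87.1 and 68.6 CPM.

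The lower genes of smallest p had varied roles. Cyb5r1, a cytochrome b5 reductase (ENSMUSG00000026456, chr1:134405559-134411740 on GRCm38), stood at 45.4 and 52.7 CPM with cabo and at 84.1 and 97.9 CPM in the controls, a log2 FC of -0.89 (95% interval -1.20 to -0.58). Trmt1, a tRNA methyltransferase, stood at 97.4 and 98.8 CPM against 161 and 150 CPM (log2 FC -0.66, SE 0.103). Gfra2, the neurturin receptor, stood at 27.8 and 25.5 CPM against 54.3 and 45.2 CPM (log2 FC -0.90, SE 0.141). Each was lower in both cabo tumors than in either control. Slc9b2, a sodium-proton exchanger found in osteoclasts, stood at 4.20 and 5.95 CPM against 26.2 and 14.1 CPM (log2 FC -1.99, SE 0.369). Lag3, an inhibitory receptor of T cells, stood at 0.957 and 0.715 CPM against 2.80 and 3.17 CPM (log2 FC -1.84, SE 0.346). Cth, which makes cysteine from cystathionine, stood at 35.8 and 49.6 CPM against 71.6 and 87.6 CPM, and Recql4, a DNA helicase, at 22 and 28.5 CPM against 52.4 and 47.7 CPM.

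**Figure D3:**
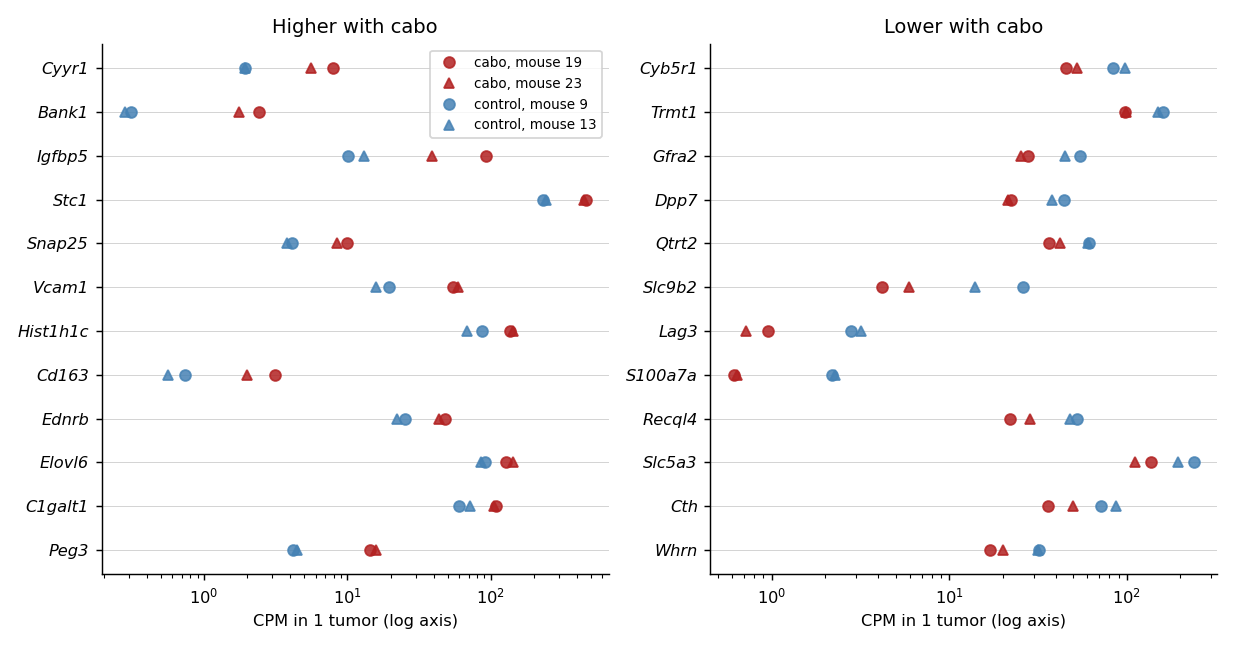
Levels of 12 higher and 12 lower genes of smallest p, leaving out those that follow muscle in the D14 tumors. Each point is the level of 1 tumor on a log10 CPM axis, with cabo mice 19 and 23 and control mice 9 and 13; the pairs do not overlap in any gene shown, and the values run from 0.559 to 3.14 CPM in Cd163 and from 45.4 to 97.9 CPM in Cyb5r1.

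The tumors that received the IL-27 plasmid gave a second view of cabo, since none of their libraries is shared. Of the 309 DEGs higher with cabo, 260 (84.1%) had a log2 FC above 0 in IL-27+cabo against IL-27, where 51.1% of all genes did. Of the 185 that did not follow muscle, 138 did so. Of the 193 DEGs lower with cabo, 131 (67.9%) were below 0 there, where 48.9% of all genes were. Vcam1 and Cd163 were higher there as well, with a log2 FC of 1.99 and 3.14, and Cyb5r1 and Gfra2 lower, with -0.97 and -0.99. Hist1h1c and Peg3 went the other way, at -0.51 and -0.39, and Lag3 was at 0.05.

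The receptor kinases that cabo inhibits were each measured, apart from Ros1, which had 0 counts in all 4 tumors. Of the 12 tested, 10 were higher with cabo, 7 without overlap (58.3%, beside 21.4% of all genes), none lower without overlap, and the median log2 FC was 0.29. Among the VEGF receptors, Flt4, the receptor of VEGF-C (ENSMUSG00000020357, chr11:49609263-49652739 on GRCm38), stood at 23.3 and 19.4 CPM against 14.7 and 15.6 CPM, a log2 FC of 0.50 (95% interval 0.08 to 0.91). Kdr, the main VEGF receptor of endothelium, stood at 29.7 and 20.01 CPM against 17.6 and 20.2 CPM (0.40, -0.29 to 1.08). Flt1, the receptor that traps VEGF, stood at 96.1 and 74.7 CPM against 113 and 57.8 CPM (0.00, -0.72 to 0.72). The VEGF receptors thus ran from separated groups in Flt4 to wide overlap in Flt1. Tek, the angiopoietin receptor, stood at 9.10 and 6.36 CPM against 2.95 and 4.20 CPM, a log2 FC of 1.11 (0.13 to 2.10).

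Met stood at 81.2 and 84.3 CPM against 72.0 and 63.9 CPM, and its log2 FC of 0.28 had an interval of -0.28 to 0.85. Among the TAM receptors, Axl stood at 599 and 642 CPM against 531 and 478 CPM (0.30, -0.01 to 0.61). Mertk, which lets macrophages take up dead cells, stood at 47.3 and 55.3 CPM against 37.1 and 23.6 CPM (0.76, 0.12 to 1.40). All 3 were without overlap, as was Tyro3, at 26.7 and 27.1 CPM against 22.8 and 21.7 CPM (0.27, -0.05 to 0.60). Ntrk2, the receptor of brain-derived neurotrophic factor, stood at 4.23 and 6.10 CPM against 1.04 and 2.96 CPM (1.36, 0.03 to 2.70). Flt3, Kit and Ret, receptors of blood precursors, mast cells and neurons, overlapped, with a log2 FC of 0.01 (-1.04 to 1.05), -0.07 (-0.88 to 0.73) and -0.04 (-1.31 to 1.23).

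The ligands of these kinases had a median log2 FC of -0.06, with 6 of 18 higher. Gas6, the ligand of the TAM receptors, stood at 13.2 and 13.9 CPM with cabo and at 3.30 and 6.21 CPM in the controls, a log2 FC of 1.51 (SE 0.457), without overlap. Vegfa, the ligand of Kdr and Flt1, stood at 191 and 220 CPM against 464 and 200 CPM, so that control mouse 9 lay above the other 3 tumors. Without mouse 9 its log2 FC went from -0.69 to 0.04.

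**Figure D4:**
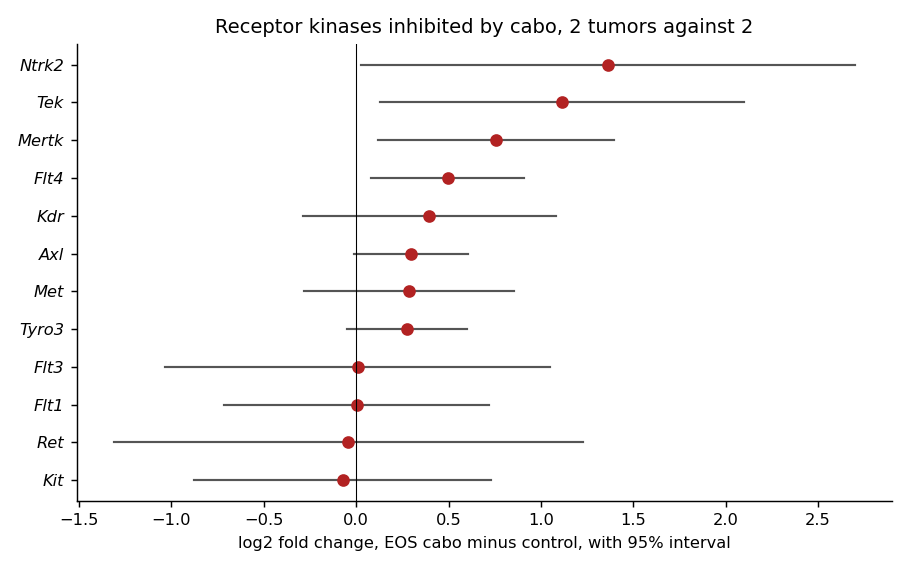
Receptor kinases inhibited by cabo, with the log2 FC of 2 cabo against 2 control EOS tumors and its 95% interval on the horizontal axis. Each point is 1 kinase, from Ntrk2 at 1.36 and Tek at 1.11 to Kit at -0.07; the intervals of Ntrk2, Tek, Mertk and Flt4 lie above 0 before adjustment for all genes tested.

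Endothelial genes were slightly higher with cabo. Of 25 pan-endothelial genes, 24 were higher, 14 without overlap (56%, beside 21.4% of all genes), 7 at an unadjusted p under 0.05, and the median log2 FC was 0.62. Cldn5, the claudin of endothelial tight junctions, stood at 16.5 and 21.7 CPM against 10.4 and 7.69 CPM, a log2 FC of 1.08 (SE 0.315). Emcn, the sialomucin endomucin of veins and capillaries, stood at 26.3 and 28.9 CPM against 16.8 and 12.5 CPM (log2 FC 0.91, SE 0.275). Eng, the TGF-beta co-receptor endoglin, stood at 44.0 and 43.4 CPM against 30.4 and 25.5 CPM. These were clear of overlap, but the defining markers were not. Cdh5, the cadherin of endothelial junctions, stood at 123 and 99.7 CPM against 101 and 49.4 CPM, and Pecam1 at 84.3 and 70.6 CPM against 73.2 and 42.1 CPM. Leaving out 1 tumor moved the median of the list between 0.41 and 0.88. In IL-27+cabo against IL-27 the median was 1.00, with 23 of 25 higher.

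Of 22 genes of tip cells and Notch signals in sprouting vessels, 15 were higher, 8 without overlap (36.4%, beside 21.4% of all genes), and 3 were lower without overlap (13.6%, beside 21.6%). Hey1, a Notch target of arteries, stood at 4.41 and 5.05 CPM against 1.79 and 1.51 CPM, a log2 FC of 1.52 (SE 0.367). Aplnr, the apelin receptor, stood at 14.8 and 8.37 CPM against 2.92 and 1.50 CPM (log2 FC 2.39, SE 0.658). The members lower without overlap were Esm1, Efnb2 and Angpt2, known from tip cells and vessel remodeling. Esm1 stood at 5.40 and 5.09 CPM against 27.4 and 9.17 CPM, a log2 FC of -1.80 (SE 0.478). Angpt2, the ligand that loosens vessels through Tek, stood at 20.4 and 21.7 CPM against 43.0 and 34.3 CPM, and Efnb2, an ephrin of arteries, at 83.5 and 90.6 CPM against 140 and 148 CPM. Of 14 pericyte and mural genes, 10 were higher, with a median log2 FC of 0.39.

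At D14 the same contrast looked otherwise, and the difference between both changes was tested directly. All 20 intratibial tumors entered 1 fit, with 3 cabo and 3 control tumors at D14 and their own controls at each time. Of 21563 genes tested, 17 (0.0788%) had a change with cabo that was more positive at EOS than at D14 at an adjusted p under 0.05 by edgeR's quasi-likelihood F test, and 0 (0%) one that was more negative, while 887 had an unadjusted p under 0.05. By DESeq2 the numbers were 71 and 17, and all 17 genes of edgeR were among its calls. In that fit, 37 genes fell and 3 rose with cabo at D14. Time of harvest and any difference in sequencing or dosing between the harvests cannot be told apart.

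Flt4 had the smallest p of the 17. At D14 it stood at 0.804, 0.920 and 1.41 CPM with cabo against 17.3, 26.4 and 15.6 CPM in the controls, a log2 FC of -4.24. At EOS, on the scaling of the same fit, it stood at 22.9 and 19.1 CPM against 14.3 and 15.4 CPM, a log2 FC of 0.50. The difference was 4.74 (SE 0.427, adjusted p 0.000139 by edgeR). Cabo tumors at EOS thus lay above their controls in a gene that was more than 10 times lower at D14. Both EOS controls were slightly below the lowest D14 control.

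Other genes of vessels were among the 17. Emcn stood at 2.00, 3.11 and 3.24 CPM with cabo against 20.5, 19.2 and 13.8 CPM at D14, and its difference was 3.60 (SE 0.438). Dll4, the Notch ligand of tip cells, stood at 1.26, 1.26 and 1.81 CPM against 12, 12.1 and 13.2 CPM at D14, and at EOS at 18 and 13.4 CPM against 17.7 and 8.73 CPM (difference 3.35, SE 0.440). Ednrb, an endothelin receptor, stood at 4.88, 5.15 and 7.40 CPM against 23.1, 23.7 and 26.7 CPM at D14, and at EOS at 46.9 and 43.0 CPM against 24.6 and 21.8 CPM (difference 3.03, SE 0.358). So the EOS groups overlapped in Dll4, while Ednrb was higher with cabo. The guidance receptors Ephb1 and Robo1 had differences of 4.77 (SE 0.498) and 3.87 (SE 0.449). The others were Gm13304, Mest, Rasgrp3, Klhl4, Kcne3, Pcdh12, Tmem255a, 4930502E18Rik, Sema3f, Mmp15 and Gimap6, and each of the 17 was lower with cabo at D14. With each of the 4 EOS tumors left out in turn, Flt4, Ephb1, Robo1, Ednrb, Emcn and Dll4 were called each time. Most others of the 17 were not, and some of these fits called genes outside the 17. In these fits the arm with 1 tumor left is assumed to vary like the other groups, which supply the spread.

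Over the pan-endothelial list the median log2 FC was -1.09 at D14, with 23 of 25 lower, against 0.62 at EOS, and the median difference was 1.42. Of that list edgeR called Emcn alone, and DESeq2 called Emcn, Mmrn2, Cldn5, Tie1, Ramp2 and Kdr. Cldn5 stood at 1.55, 1.13 and 1.04 CPM against 6.30, 9.78 and 9.34 CPM at D14, and its difference of 3.85 (SE 0.764) had an adjusted p of 0.113 by edgeR and 0.000338 by DESeq2. Esm1 stood at 0.172, 0.0839 and 0.408 CPM against 8.58, 9.03 and 9.36 CPM at D14, and at EOS it was again below the controls in both cabo tumors. Its difference was 3.54 (SE 0.754), with an adjusted p of 0.158 by edgeR and 0.000834 by DESeq2.

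**Figure D5:**
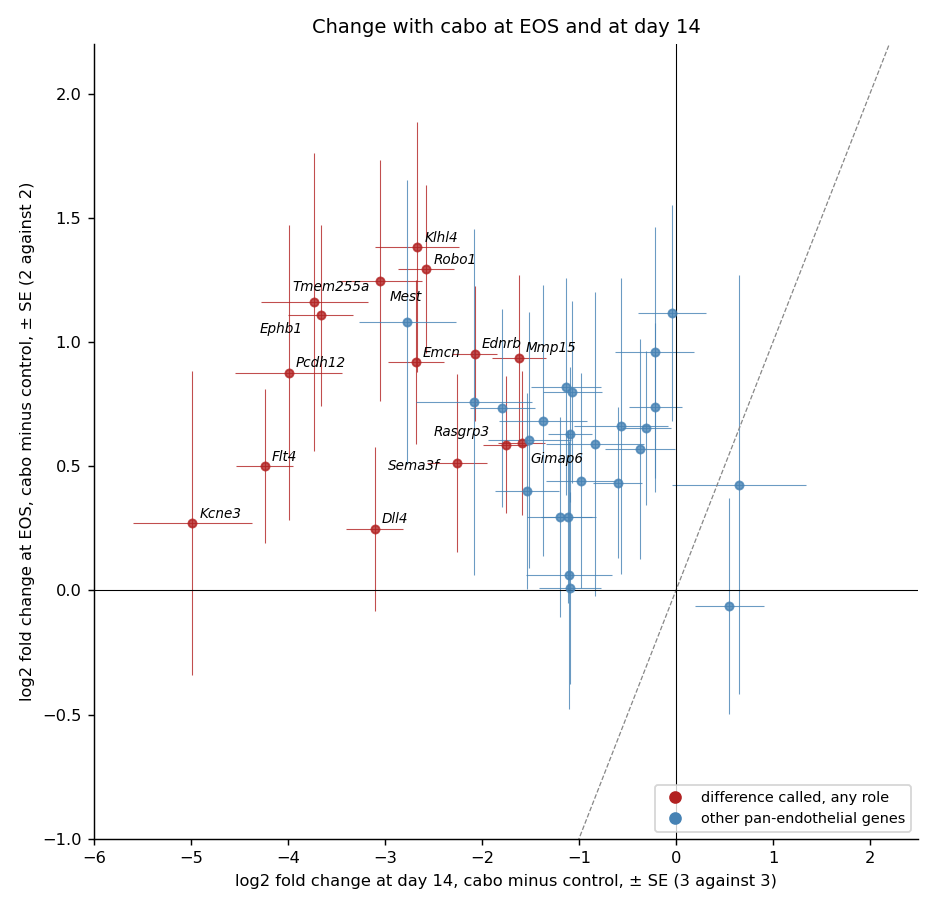
Change with cabo at EOS (vertical axis, log2 FC, 2 against 2 tumors) and at D14 (horizontal axis, log2 FC, 3 against 3 tumors), with standard errors as bars and the line of equal change dashed. Red points are 15 of the 17 genes whose change differed between the times, leaving out Gm13304 and 4930502E18Rik, and blue points are other pan-endothelial genes; the red points lie between -4.98 and -1.59 at D14 and above 0 at EOS.

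Interferon genes were higher with cabo over the whole list, though few of them separated the groups. All 26 genes of the type I interferon response had a log2 FC above 0, as 48.9% of all genes had, with a median of 0.63, but 5 were without overlap (19.2%, beside 21.4% of all genes) and 1 had an unadjusted p under 0.05. That gene was Usp18, the protease that removes Isg15 from proteins, at 8.12 and 4.04 CPM against 2.71 and 2.00 CPM (log2 FC 1.37, SE 0.470). All 14 interferon-gamma GTPases, which attack vacuoles of pathogens, were above 0, 7 without overlap (50%, beside the same 21.4%), with a median of 0.95 and none at an unadjusted p under 0.05. The scores of the type I list were 4.04 and 3.01 with cabo and 3.36 and 2.24 in the controls, so mouse 23 lay below control mouse 9. Without cabo mouse 19, the medians of the lists were 0.09 and 0.21.

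In IL-27+cabo against IL-27 the same medians were 2.96 and 2.90, with every tested member of both lists above 0. The interferon-stimulated response element, the site of interferon-activated factors, has a core of the letters GAAA repeated after a gap of 2 bases (NN), which was searched on both strands over 250 bases upstream. It was in 8 of 20 windows (40%) of the 18 type I genes matched, in 9 of 12 (75%) of the 10 GTPase genes matched, in 978 of all windows (2.98%) and in none of the 18 endothelial or 21 muscle windows. Below are the windows of the GTPase genes Gbp7 (chr3:142530216-142530335, plus strand) and Irgm2 (chr11:58214857-58214976, plus strand), shown since both were without overlap, with the core in capitals, read from the opposite strand in Gbp7.
Gbp7: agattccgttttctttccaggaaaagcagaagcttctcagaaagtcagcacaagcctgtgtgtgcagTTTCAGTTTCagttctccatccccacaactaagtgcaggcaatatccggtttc
Irgm2: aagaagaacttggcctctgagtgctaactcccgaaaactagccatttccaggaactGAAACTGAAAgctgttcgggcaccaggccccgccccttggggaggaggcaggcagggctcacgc

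Gbp7 stood at 22.4 and 12.7 CPM with cabo against 10.5 and 5.82 CPM, a log2 FC of 1.11 (SE 0.515), and Irgm2 at 14.0 and 8.49 CPM against 6 and 4.10 CPM (log2 FC 1.16, SE 0.564). Cxcl9, a chemokine for T cells, stood at 6.98 and 4.08 CPM against 3.01 and 0.545 CPM. Its relative Cxcl10 did not separate the groups, at 17.6 and 11.5 CPM against 40.3 and 5.09 CPM. Of 16 genes of class I antigen presentation, 14 were higher, 1 without overlap (6.25%, beside 21.4% of all genes), 1 was lower without overlap (6.25%, beside 21.6%), the median was 0.27, and in IL-27+cabo against IL-27 all 16 were higher with a median of 1.29. Among them, B2m stood at 418 and 336 CPM against 368 and 262 CPM, and H2-D1 at 345 and 237 CPM against 266 and 182 CPM.

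Macrophage genes were higher in part. Of 24 genes of monocytes and macrophages, 17 were higher, 13 without overlap (54.2%, beside 21.4% of all genes), 2 at an unadjusted p under 0.05, with a median log2 FC of 0.60. Mrc1, the mannose receptor of tissue macrophages, stood at 94.1 and 86.6 CPM against 40.2 and 26.7 CPM, a log2 FC of 1.43 (SE 0.462). Itgax, the integrin CD11c of dendritic cells and macrophages, stood at 23.1 and 11.5 CPM against 5.15 and 5.92 CPM (log2 FC 1.65, SE 0.561). Both were without overlap, as was Cd163 above. Itgax belongs to the dendritic cell list, in which 9 of 15 genes were higher and 4 without overlap (26.7%), with a median of 0.01. Csf1r, the growth factor receptor of the whole lineage, overlapped, at 124 and 116 CPM against 166 and 73.8 CPM (log2 FC 0.00, 95% interval -1.27 to 1.27). Gpnmb, a glycoprotein of lipid-laden macrophages and osteoclasts, was lower, at 42.0 and 42.1 CPM against 78.0 and 112 CPM.

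T cell genes were low and lower with cabo. Of 20 tested, 16 had a log2 FC below 0, 8 without overlap (40%, beside 21.6% of all genes), with a median of -0.92. Cd3e, a chain of the T cell receptor complex, stood at 0.361 and 0.175 CPM against 2.13 and 1.61 CPM, a log2 FC of -2.79 (SE 0.804). Cd247, the zeta chain of that complex, stood at 0.388 and 0.292 CPM against 0.983 and 1.19 CPM. Cd4 overlapped, at 2.94 and 4.14 CPM against 4.36 and 4.08 CPM, and Cd8a was at or near 0 in each tumor, with 0.338 CPM at most. Thy1 and Tcf7, which other cells also express, were higher without overlap, with a log2 FC of 0.66 and 0.69. In IL-27+cabo against IL-27 the median of the list was -0.86, and at D14 it was -1.16.

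Osteoclast genes were lower with cabo. Of 16, 15 had a log2 FC below 0, 9 without overlap (56.2%, beside 21.6% of all genes) and 7 at an unadjusted p under 0.05 (4.36% of all genes were lower at that limit), with a median of -0.67. Ctsk, the collagen-cutting cathepsin of osteoclasts, stood at 89.6 and 153 CPM against 329 and 182 CPM, a log2 FC of -1.07 (SE 0.350). Acp5, the acid phosphatase TRAP, stood at 62.5 and 147 CPM against 409 and 192 CPM (log2 FC -1.52, SE 0.475). Atp6v0d2, a proton pump subunit of osteoclasts, stood at 6.56 and 17.5 CPM against 59.5 and 26.5 CPM (log2 FC -1.84, SE 0.587). In each, control mouse 9 was highest and cabo mouse 19 lowest. Mmp9, a gelatinase also made by other myeloid cells, overlapped, at 106 and 237 CPM against 808 and 234 CPM. The list's score was 3.51 and 4.18 with cabo and 5.05 and 4.42 in the controls. The median was -0.43 without mouse 9, -0.46 without mouse 19 and -0.12 with the muscle score as a covariate. In IL-27+cabo against IL-27 it was 0.22, with 11 of 16 higher. Of 13 osteoblast and osteocyte genes tested, 6 were higher without overlap (46.2%, beside 21.4%) and 2 lower (15.4%, beside 21.6%), with a median of 0.07. The higher ones, among them Alpl, an alkaline phosphatase that osteoblasts need for mineral, at 1.68 and 2.03 CPM against 0.881 and 1.05 CPM, were at 3.15 CPM at most, and none had an unadjusted p under 0.05. Tnfsf11, the osteoclast-forming cytokine RANKL, was lower, at 3.45 and 4.16 CPM against 9.26 and 5.54 CPM (log2 FC -0.96, SE 0.342), as was Runx2, the master factor of osteoblasts, at 76.6 and 74.5 CPM against 91.7 and 90.8 CPM. The osteoblast genes Bglap, at 0 counts in all 4 tumors, and Ibsp, at 4 counts in mouse 23 and 0 elsewhere, were not tested.

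The control tumors differed from each other in several lists. Of 21 genes of hypoxia and glycolysis, 19 were lower with cabo, 1 without overlap (4.76%, beside 21.6% of all genes), and the median log2 FC of -0.41 was 0.20 without mouse 9. In IL-27+cabo against IL-27, which do not include mouse 9, the median was -0.51, also with 19 of 21 lower. P4ha1, a hydroxylase of collagen, was separated, at 388 and 451 CPM against 655 and 553 CPM, and Pgk1, a glycolytic kinase, was not, at 1042 and 1405 CPM against 2022 and 1208 CPM. Hbb-bs, adult beta-globin, stood at 33.2 and 31.0 CPM against 226 and 30.2 CPM, so that mouse 9 lay above the other 3. S100a9, a calcium-binding protein of neutrophils, stood at 0.153 and 0.263 CPM against 4.89 and 0.266 CPM. The medians of the erythroid and neutrophil lists, -1.41 and -1.53, were -0.03 and 0.33 without mouse 9. Hspa1b, an inducible heat shock protein, stood at 155 and 190 CPM against 710 and 304 CPM (log2 FC -1.56, SE 0.390), and 14 of 16 genes of the stress and unfolded protein response were lower, 6 without overlap (37.5%), with a median of -0.40. Without mouse 9 that median was -0.13, and in IL-27+cabo against IL-27 it was -0.41, with 13 of 16 lower.

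Housekeeping lists differed in small steps. All 18 cytosolic ribosomal protein genes had a log2 FC below 0, 16 without overlap (88.9%, beside 21.6%), with a median of -0.33. Rpl13 stood at 960 and 1033 CPM against 1523 and 1368 CPM (log2 FC -0.54, SE 0.144). All 9 mitochondrially encoded genes were above 0, 6 without overlap (66.7%, beside 21.4%), with a median of 0.33. mt-Nd5, a subunit of respiratory complex I, stood at 2238 and 1767 CPM against 1240 and 1443 CPM (log2 FC 0.58, SE 0.145). With the muscle score as a covariate, the medians were -0.04 and 0.05, and in IL-27+cabo against IL-27 they were -0.09 and 0.02. Of 21 proliferation genes, 16 were higher, 9 without overlap (42.9%, beside 21.4%) and 4 at an unadjusted p under 0.05, 1 was lower without overlap, and the median was 0.15. Top2a, which untangles DNA in dividing cells, stood at 695 and 647 CPM against 641 and 626 CPM, and Pcna, the clamp of replication and the member lower without overlap, at 214 and 230 CPM against 262 and 276 CPM.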

How the data were processed

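Poly(A) RNA of 24 mouse tumors was sequenced from stranded libraries. The authors deposited raw counts per Ensembl gene. The submitters' processing notes name FastQC, HISAT2, StringTie and DESeq2 and the build GRCh38, a human build, although the identifiers are of mouse genes and the methods name the mouse genome. The counting program is not given in the sources used here. Gene names came from GENCODE M21 on GRCm38, which lacked 260 of 55401 identifiers. Values of 1 to 20 were multiples of 4 in 31.0% to 32.7% of cases in the EOS libraries, so counts divided by 4 were tried.

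Counts of the 8 EOS libraries were modelled with edgeR 4.0.16 under R 4.3.3 (filterByExpr, TMM, quasi-likelihood F test, two-sided, Benjamini-Hochberg over all genes), with treatment group as the only term. The change at EOS against that at D14 used all 20 intratibial libraries. Code was tested on simulated data. DESeq2 1.42.0, other scalings and filters, other samples in the fit, a muscle score covariate, trends with GC content and length, and leaving out each tumor were alternatives. Promoters came from RefSeq on GRCm38.p6. For 56 of 71 windows, the 30 bases after the start lay in a GENCODE transcript of the gene.

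Genes were to be named if called with no overlap and at least 1 CPM, 12 a direction, or as called list members. As edgeR called none, the 12 of smallest p a direction were looked at, with the receptor kinases and up to 2 of the most abundant members of each of 48 lists. Members and lists were chosen with earlier results of these data known. Some list members are not reported here.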

Additional observations from a re-analysis of the deposited data

Results flagged for a closer look

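The change with cabo differed between EOS and D14 in 17 genes, by a test of the difference itself over all 20 intratibial tumors at an adjusted p under 0.05 (edgeR's quasi-likelihood F test, 2 against 2 tumors at EOS and 3 against 3 at D14). The differences, EOS minus D14 on the log2 scale, were 4.74 for Flt4, 4.77 for Ephb1, 3.87 for Robo1, 3.03 for Ednrb, 3.60 for Emcn and 3.35 for Dll4. They were 4.29 for Mest, 2.34 for Rasgrp3, 4.05 for Klhl4, 5.25 for Kcne3, 4.87 for Pcdh12 and 4.89 for Tmem255a. They were 2.77 for Sema3f, 2.56 for Mmp15 and 2.19 for Gimap6. For Gm13304 the difference was 10.06 and for 4930502E18Rik 9.25, and both were at 0 counts in all 3 cabo tumors at D14, so these sizes depend on the fit's prior count. Each of the 17 was lower with cabo at D14, and at EOS 16 were above 0, Gm13304 being at -0.57. No test for an outlying tumor was run, since no group had more than 3 tumors.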

How the results depend on the processing

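No paired analysis was possible because the EOS groups carry mouse numbers that no groups share. With 2 tumors a group that often differed from each other, directions of single genes with small changes are not settled. Genes called numbered 0 under every alternative except DESeq2, with 245 (161 higher, 84 lower, 73 of them following muscle), and leaving out 1 tumor, with 0 to 10 in all and 0 to 10 higher. The 10 were called without mouse 23, 9 of them following muscle, and 1, Eme2, without mouse 13. An arm with 1 tumor left is assumed to vary like the other groups of the fit. DEGs higher and lower were 102 and 371 with the muscle covariate, 205 and 108 with counts divided by 4, 610 and 482 at an absolute fold change of at least 1.5, 0 and 0 at the adjusted limit, and 185 and 191 without genes following muscle, chosen after seeing the data. Leaving out 1 tumor gave 180 to 497 higher (without mouse 19 and mouse 13) and 178 to 392 lower (without mouse 23 and mouse 19). Without mouse 19, 146 and 86 of the first 309 and 193 were shared. Genes whose change differed between EOS and D14 were 71 more positive and 17 more negative by DESeq2, 11 more positive with the muscle covariate (all 11 among the 17), and 6 to 9 more positive and 0 to 3 more negative without 1 tumor, the 3 (Hcar2, Acod1, Clec4e) without mouse 13. Leaving out 1 tumor, the log2 FC ran from -2.82 to 0.092 in Hbb-bs, -1.18 to 0.041 in Vegfa, -0.73 to 0.021 in Pgk1, -0.50 to 0.18 in Eno1, -0.19 to 0.85 in Dll4, -1.47 to 1.52 in Cxcl10, -0.11 to 1.30 in Cd74 and -0.017 to 0.39 in Irf1, with mouse 13 left out at the low end and mouse 9 at the high end. It ran likewise from -0.48 to 0.50 in Kit, -0.49 to 0.61 in Ret, -0.48 to 0.74 in Flt3, -0.40 to 0.57 in Flt1 and -0.47 to 0.70 in Csf1r. In Eno3 it ran from -0.43 to 0.40, with mouse 9 left out at the low end and mouse 13 at the high end, and in Ifit2 from -0.13 without mouse 19 to 0.43 without mouse 23. With the muscle covariate it was 0.24 in Pgk1, 0.21 in Acan, 0.27 in Spp1, 0.47 in Eno1, 0.65 in Cxcl10, -0.83 in Krt8 and -0.42 in Flt1. With trends of GC content and length removed it was -0.15 in Flt3, -0.040 in Flt1 and -0.027 in Csf1r, and with counts divided by 4 it was 0.049 in Ret, -0.0018 in Flt1 and -0.0023 in Csf1r. Over both plasmids, a fit chosen after seeing the data, it was -0.0093 in Top2a, 1.35 in Cxcl10 and -0.29 in Flt1. The cause of these shifts was not tested.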

Other observations

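Gene groups of other tissues of the bone lay on either side of the controls. Of 10 cartilage genes tested, 6 were lower without overlap (60%, beside 21.6% of all genes), with a median log2 FC of -0.85. Acan, the main proteoglycan of cartilage, stood at 101 and 73.1 CPM with cabo against 162 and 137 CPM in the controls, and Sox9, the regulator of cartilage formation, at 149 and 125 CPM against 213 and 170 CPM. Of 12 adipocyte genes, 9 were lower, 7 without overlap (58.3%), with a median of -0.48, and in IL-27+cabo against IL-27 the median was -1.35. Of 12 plasma cell genes, 10 were lower, 5 without overlap (41.7%), with a median of -0.80. Of 8 mast cell genes, 5 were higher, 4 without overlap (50%, beside 21.4% of all genes) and none at an unadjusted p under 0.05, with a median of 0.74. Of 12 replication-dependent histone genes, 8 were higher, 5 without overlap (41.7%) and 3 at an unadjusted p under 0.05, and these 3 were the linker histone genes Hist1h1c, Hist1h1d and Hist1h1e. In IL-27+cabo against IL-27 the median of that list was -0.16.

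Of 13 tendon and synovial genes, 9 were higher, 6 without overlap (46.2%, beside 21.4% of all genes), with a median of 0.56. Of 20 fibroblast genes, 12 were higher, 7 without overlap (35%, beside the same 21.4%), with a median of 0.22. Fmod, a small proteoglycan of tendon, stood at 1.85 and 0.904 CPM against 0.0881 and 0.112 CPM, and it followed the muscle score at D14 (r = 0.88). Fap, a protease of activated fibroblasts, stood at 10.7 and 11.5 CPM against 6.60 and 4.17 CPM, with a log2 FC of 1.05 (SE 0.284). The myelin gene Mbp, at 55.4 and 52.2 CPM against 38.3 and 30.6 CPM, was above the controls without overlap, as were 6 of the 11 nerve and Schwann cell genes tested (54.5%, again beside 21.4%), itself included, and in IL-27+cabo against IL-27 the median of that list was -0.27. The adjusted p of each was at least 0.404 by edgeR.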
